A study of Mus musculus with 29 samples.

Results

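The genes described here encode the histone variant H3.3 (H3f3a and H3f3b) and the chaperones that carry histone H3 to DNA: Hira and Cabin1 of the HIRA complex, Daxx and Atrx, the CAF-1 subunits Chaf1a and Chaf1b, and the shared donors Asf1a and Asf1b. The rule takes them by symbol and uses no measured value, although the set was proposed with earlier results of these data known, and all 10 were found among the 24448 gene rows of the deposited count table. The study profiled RNA from 29 mouse libraries. Of these, 9 came from control embryos and 8 from embryos exposed to hydroxyurea (HU), which blocks ribonucleotide reductase, the enzyme that makes deoxynucleotides, and so slows DNA synthesis. The remaining 12 were single cumulus cells, the somatic cells around the oocyte that supplied the donor nuclei.

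All animals were of the BDF1 strain, and the labels give no age and name no animal, clone or day. Every embryo was made by nuclear transfer: a cumulus nucleus was injected into an enucleated MII oocyte, and after 1 h in KSOM the oocyte was activated over 6 h in KSOM with 10 mM strontium, 5 ug/ml CB and 2 mM EGTA. Control and HU embryos thus share the somatic donor nucleus and the activation, and no fertilized embryo was analysed here. HU embryos were then cultured with 10 uM HU, replaced by fresh medium after 24 h, and control embryos were cultured without HU. Embryos were taken as 2-cell embryos 28 h after activation. The labels do not say from when the 24 h ran, so whether HU was still present at collection is not known here. The labels state no culture or treatment for the cumulus cells. RNA stored in the oocyte and RNA made by the embryo cannot be told apart in these libraries.

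Nucleosomes are assembled from new histones by chaperones that differ in the H3 form they carry. Canonical H3.1 and H3.2 are deposited behind the replication fork by CAF-1, which is tethered there by PCNA, whereas H3.3 is deposited independently of replication, by HIRA at active genes and by ATRX with DAXX at heterochromatic repeats. ASF1 receives H3 with H4 and hands them to CAF-1 or HIRA. In nuclear transfer the somatic chromatin is stripped and rebuilt with histones of oocyte origin, among which H3.3 is prominent, and in mouse embryonic stem cells loss of CAF-1 is known to raise genes of the 2-cell stage.

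H3f3a (GRCm38 chr1:180800832-180813943, minus strand) and H3f3b (chr11:116021912-116027962, minus strand) encode the same protein from different genes. Their coding sequences in GENCODE M21 were both 411 bases long, were identical at 316 bases (76.9%) and differed at 95, and 0 codons differed in the amino acid encoded. The first 150 coding bases are shown because reads that lie inside the coding sequences are told apart only by such differences. The gene lengths behind the deposited FPKM were 1076 bases for H3f3a and 1993 for H3f3b, so both also cover bases outside the coding sequence. Capitals mark the 32 bases of the stretch that differ.
H3f3a: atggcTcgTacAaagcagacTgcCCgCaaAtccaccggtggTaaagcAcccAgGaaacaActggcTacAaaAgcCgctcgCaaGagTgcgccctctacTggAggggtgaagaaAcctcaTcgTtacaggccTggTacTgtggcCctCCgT
H3f3b: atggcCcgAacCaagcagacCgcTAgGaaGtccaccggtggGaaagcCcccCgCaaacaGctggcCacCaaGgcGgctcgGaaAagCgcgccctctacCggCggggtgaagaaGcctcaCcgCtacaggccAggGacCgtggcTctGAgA
The longest run shared by both coding sequences was 23 bases. The annotation also lists the processed pseudogenes H3f3c, H3f3a-ps1 and H3f3a-ps2 and the antisense gene H3f3aos, none of which had a row under that name in the count table. How reads from such copies were assigned is not given in the sources used here, so the H3f3a counts are uncertain to that extent.

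The promoters of Chaf1a and Chaf1b are shown because their transcripts were nearly absent from the cumulus cells described further on. Chaf1a lies at chr17:56040439-56072289 and Chaf1b at chr16:93883901-93906115, both on the plus strand. The windows are the 250 bases before the RefSeq start on GRCm38.p6, chr17:56040166-56040415 for Chaf1a and chr16:93883651-93883900 for Chaf1b. Capitals mark the E2F letters TTCCCGC, read on either strand, and the CCAAT box.
Chaf1a: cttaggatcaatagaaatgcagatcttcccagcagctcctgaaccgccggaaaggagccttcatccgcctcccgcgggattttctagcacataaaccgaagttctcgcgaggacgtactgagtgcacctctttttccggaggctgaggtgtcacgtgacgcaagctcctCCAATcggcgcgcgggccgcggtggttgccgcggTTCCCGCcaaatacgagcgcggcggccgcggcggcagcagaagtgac
Chaf1b: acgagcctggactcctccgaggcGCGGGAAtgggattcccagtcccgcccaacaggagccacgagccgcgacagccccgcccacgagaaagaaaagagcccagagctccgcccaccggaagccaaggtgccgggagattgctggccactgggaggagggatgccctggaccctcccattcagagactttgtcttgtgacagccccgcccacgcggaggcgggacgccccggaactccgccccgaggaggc
In Chaf1a the E2F letters began 47 bases and the CCAAT box 81 bases before the start. In Chaf1b the E2F letters stood on the opposite strand, 227 bases before the start, and no CCAAT box was in the window. The E2F letters were in 3.82% and the CCAAT box in 33.8% of the 32851 RefSeq promoter windows of this length, and of the 10 genes only this pair had the E2F letters.

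Asf1b (chr8:83955507-83970197, plus strand), which had no count in any cumulus cell, and H3f3b, the most abundant transcript of the group, each had 4 CCAAT boxes in the 250 bases, and 0.840% of all windows had 4 or more. Asf1b also held the letters TTTGAA, those of the cell cycle element called CHR, and H3f3b the letters TATAAA of a TATA box. The RefSeq starts used for these windows lie inside the GENCODE M21 gene spans printed above, downstream of the outermost GENCODE start of each gene. The 30 bases around each are shown with these letters in capitals (chr8:83955664-83955693, plus strand, and chr11:116024514-116024543, minus strand).
Asf1b: aaggcggagccggctaTTTGAAgggagcgc
H3f3b: gtgcagcgtctcTATAAAtatggaggcgtc
TTTGAA was in 15.99% of all windows and TATAAA in 12.4%, and no other gene of the 10 had either. Motifs were searched on both strands, no match overlapped another, and a match is a match of letters only.

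Gene counts per library ranged from 1801261 to 3472116 in control embryos, from 2442541 to 3757492 in HU embryos and from 317195 to 4051494 in cumulus cells. The ribosomal RNA row Rn45s took 16.2% to 32.5%, 15.2% to 28.98% and 49.3% to 86.6% of them. Cumulus cells 2 and 10 stood apart, with 188546 and 152332 counts besides Rn45s, the only cells under 200000. Of 12 oocyte and embryo markers, all 12 had counts in both embryo groups (medians of the summed level 5772 and 4695 CPM, the count scaled to a common library total), and 8, among them Zp3, Gdf9 and Zar1, had none in the cumulus cells. Of 15 cumulus and granulosa markers, 14 had counts in the cumulus cells, where Cyp19a1 had none, 14 in control and 13 in HU embryos. Their sum ran from 81.2 to 9761 CPM in the cumulus cells, with a median of 1756 CPM. It was at most 145 CPM in any embryo, with medians of 79.2 CPM in control and 80.6 CPM in HU embryos. The lowest cumulus cell thus lay inside the embryo range. Because Smart-seq2 reads carry no molecular identifiers, each interval and floor given here covers only the counting error.

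H3f3b was by far the most abundant of these transcripts in control embryos. On the FPKM scale, which divides each count by the library total and the gene's length, its level was 794 ± 216 (SD, n = 9), against 113 ± 23.6 for H3f3a. Asf1b followed at 94.7 ± 18.6 and Asf1a at 48.9 ± 8.15. The CAF-1 subunits were level with each other, at 31.2 ± 9.66 FPKM for Chaf1b and 31.1 ± 8.90 FPKM for Chaf1a. Cabin1 (24.6 ± 4.02 FPKM) and Atrx (24.4 ± 5.98 FPKM) were a little lower, then Daxx (18.02 ± 4.99 FPKM), and Hira was lowest at 7.80 ± 3.59 FPKM.

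Neighbours in this order were compared within embryos by a 2-sided exact sign-flip permutation test on log2(FPKM + 0.1), adjusted over the 9 neighbouring pairs. The order, and so the choice of pairs, came from these same embryos, so the p-values are no independent test of it. H3f3b lay above H3f3a and Asf1b above Asf1a in 9 of 9 embryos each (adjusted exact p = 0.0176 for both). Their unadjusted exact p of 0.0039 is the smallest that 9 embryos give. Asf1a exceeded Chaf1b in 8 of 9 (adjusted exact p = 0.0234), Atrx exceeded Daxx in 8 of 9 and Daxx exceeded Hira in 7 of 9 (adjusted exact p = 0.0281 for both). The other neighbours, H3f3a and Asf1b (0.206), Chaf1b and Chaf1a (0.930), Chaf1a and Cabin1 (0.152), and Cabin1 and Atrx (0.930), were not separated beyond their spread by the adjusted exact p. With any 1 control embryo left out, 3 or 4 of the 5 pairs still passed, and Atrx over Daxx and Daxx over Hira were those whose adjusted exact p could rise to 0.0563. HU embryos had the same order of mean FPKM except that Chaf1a (44.7 FPKM) stood above Chaf1b (34.0 FPKM).

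**Figure D1:**
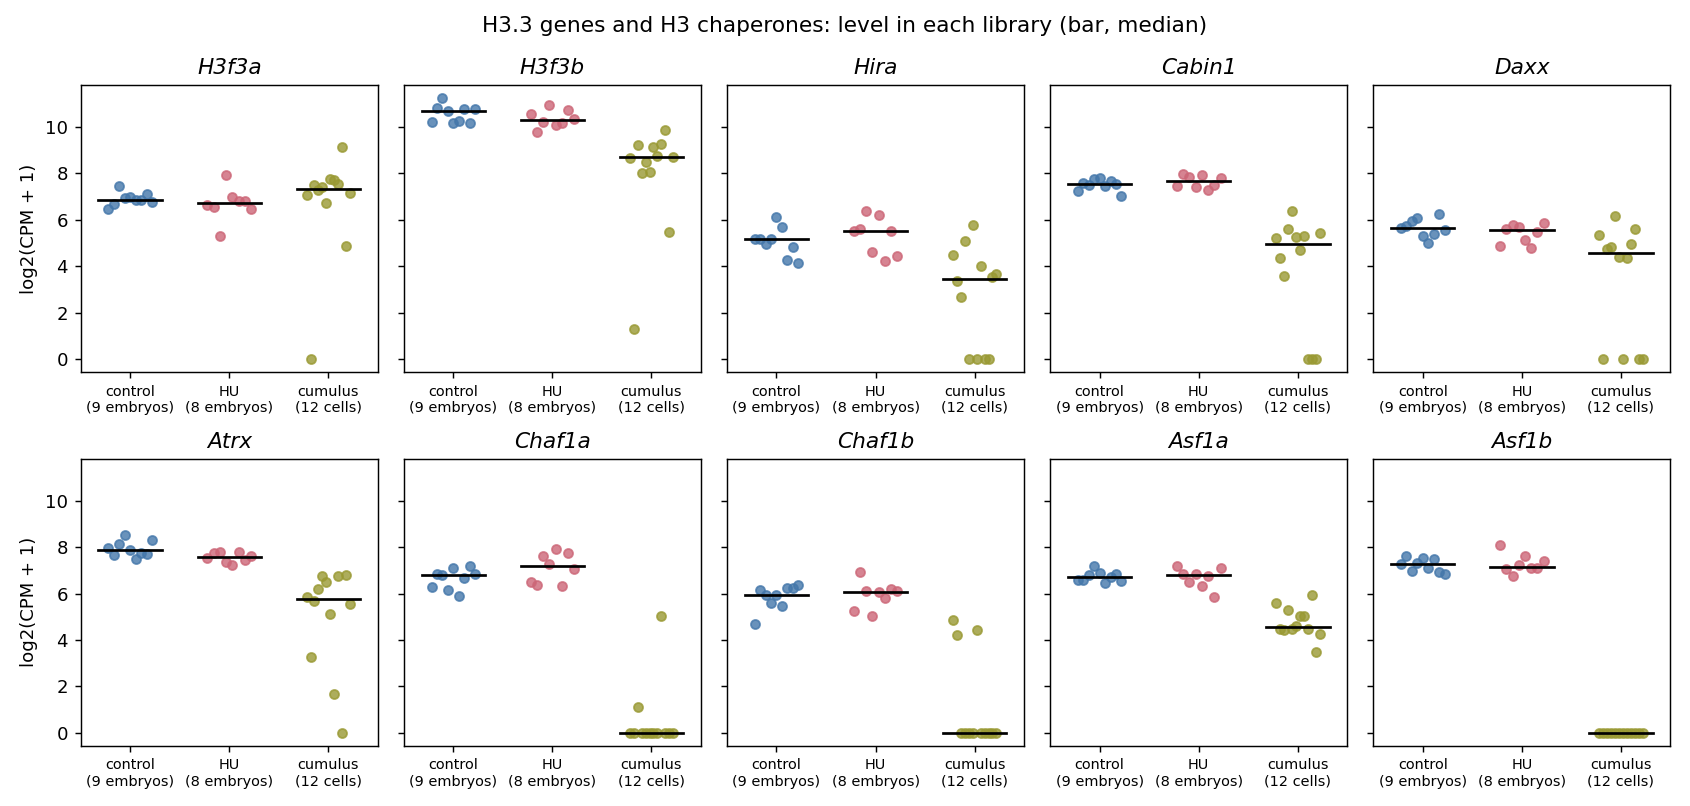
Level of each gene in every library, as log2(CPM + 1) without TMM scaling, by group (points, 1 library each; bars, medians). The embryo groups overlap for all 10 genes, while no point of Asf1b and few of Chaf1a and Chaf1b lie above 0 among the 12 cumulus cells.

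No gene of the 10 passed the test between HU and control embryos. All 10 passed the filter on low counts, 0 of 10 had an adjusted p under 0.05 in edgeR's quasi-likelihood test, and 0.0% of the 11476 genes tested did. The 2 groups overlapped for each of the 10, and 0.0174% of all genes had groups that did not overlap. DESeq2 called 3 genes of the whole table and limma-voom 0, none of them among the 10. Fitted differences ranged from -0.37 to 0.56 on the log2 scale, with a median of 0.07 and 6 of 10 above 0. Over all genes tested the median was 0.04 and 53.6% lay above 0. In counts simulated from these embryos the test recovered 7 of 50 2-fold changes (14.0%). All 10 fitted differences were smaller than 2-fold, so real differences of that size could go uncalled. At an unadjusted p under 0.05 edgeR had 1 of the 10 higher and 1 lower in HU embryos, beside 3.81% of all genes higher and 2.04% lower (671 genes, 5.85%, together). Scaling by the spiked-in ERCC RNAs in place of TMM moved the median of all genes to 0.19 and the split at that level from 437 higher and 234 lower to 629 higher and 27 lower.

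**Figure D2:**
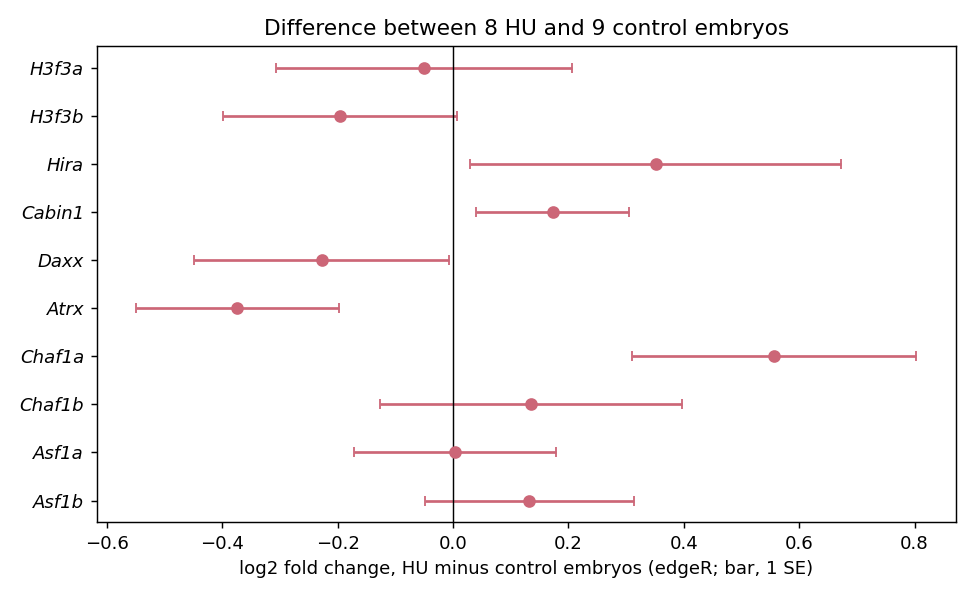
Log2 fold change of each gene, 8 HU embryos minus 9 control embryos (points, edgeR estimates; bars, 1 SE). Chaf1a lies farthest above 0 at 0.56 and Atrx farthest below at -0.37, and neither passed after adjustment.

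H3f3a, in TMM-scaled CPM (CPM adjusted for the composition of each library, as in the rest of the HU comparison), ran from 91.9 to 181 in control embryos (median 118) and from 36.6 to 258 in HU embryos (median 110). The lowest and the highest of all 17 embryos were both HU embryos, HU 3 and HU 4, and HU 2 and HU 8 also lay below every control. The coefficient of variation was 21.2% in control and 54.8% in HU embryos, and the difference in spread was not tested. The means of 121 ± 25.7 (SD, n = 9) and 117 ± 64.0 (SD, n = 8) differed by -0.05 ± 0.26 (log2, SE; edgeR adjusted p = 0.985).

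H3f3b ran from 1043 to 2496 CPM in control embryos (median 1589) and from 857 to 2145 CPM in HU embryos (median 1224). Only HU 2 and HU 5 lay below the lowest control, and the groups otherwise overlapped. The difference was -0.20 ± 0.20 on the log2 scale (edgeR adjusted p = 0.903).

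The ratio of H3f3b to H3f3a FPKM had a median of 7.46 in control embryos, with a range of 4.62 to 9.48. In HU embryos the median was 6.77 and the range 4.49 to 17.1, the highest being HU 3. There H3f3a was below every control, while H3f3b, at 604 FPKM, lay in the lower part of the control range (586 to 1224 FPKM). The mean log2 ratio of H3f3a to H3f3b was -2.80 ± 0.37 (SD, n = 9) in control and -2.80 ± 0.64 (SD, n = 8) in HU embryos (2-sided exact permutation of the group labels, p = 0.993). In the 11 cumulus cells with an H3f3a count the ratio of H3f3b to H3f3a lay between 0.810 and 1.82, with a median of 1.38. No cumulus cell overlapped any embryo, although the 12 cells count as 1 sample and no test was made.

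**Figure D3:**
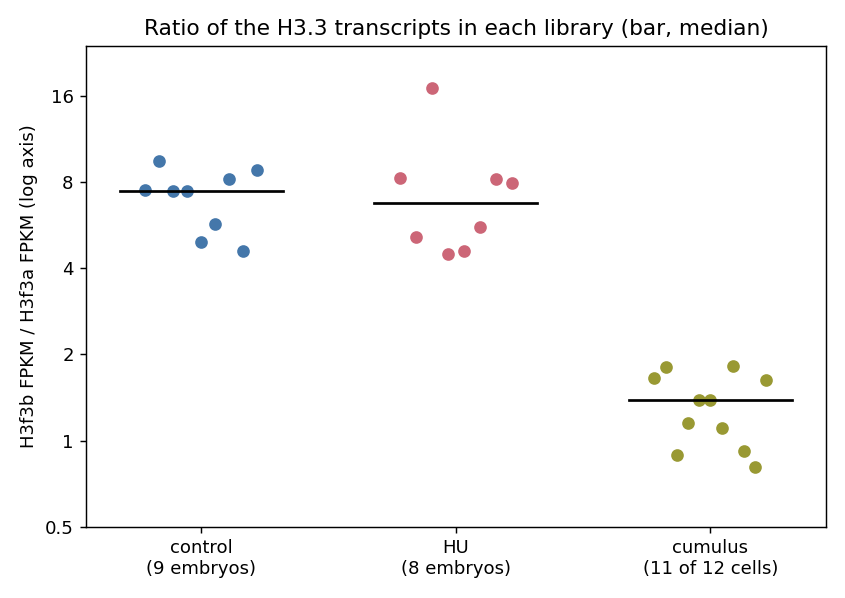
Ratio of H3f3b to H3f3a, in FPKM on a log axis, in each library (points; bars, medians). All 17 embryos lie at 4.49 or above and all 11 cumulus cells with an H3f3a count at 1.82 or below.

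Hira, the scaffold of its complex (chr16:18877037-18970309, plus strand), was the least abundant of the group. It ran from 16.9 to 64.7 CPM in control embryos (median 33.1) and from 19.2 to 79.2 CPM in HU embryos (median 46.9). HU 3 and HU 5 were above every control, and the rest overlapped (0.35 ± 0.32, log2 and SE; edgeR adjusted p = 0.887).

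Cabin1, which encodes a large partner protein of HIRA (chr10:75646112-75764341, minus strand), varied least in TMM-scaled CPM. Its coefficient of variation was 9.82% in control and 12.8% in HU embryos. It ran from 158 to 209 CPM in control embryos (median 182) and from 168 to 245 CPM in HU embryos (median 209). Of the HU embryos, 5 of 8 lay above the highest control, though some by less than 1 CPM, and the difference of 0.17 ± 0.13 did not pass (edgeR adjusted p = 0.877). Without TMM scaling HU 7 (179.9 CPM) and HU 8 (223.5 CPM) lay below the highest control (224.8 CPM). On that scale Cabin1 did not vary least in HU embryos, at 203 ± 36.7 CPM (SD, n = 8) against 191 ± 26.8 CPM for Atrx.

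Daxx, the chaperone that binds H3.3 (chr17:33909414-33915590, plus strand), ran from 31.99 to 66.7 CPM in control embryos (median 53.0) and from 28.9 to 53.7 CPM in HU embryos (median 49.1). HU 1 and HU 6 were below every control, no HU embryo was above all of them, and the difference was -0.23 ± 0.22 (edgeR adjusted p = 0.896).

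Atrx, the chromatin remodeller that acts with DAXX (chrX:105797615-105929403, minus strand), ran from 183 to 387 CPM in control embryos (median 217) and from 141 to 239 CPM in HU embryos (median 199). HU 4, HU 5 and HU 8 fell below the lowest control, and 4 controls lay above the highest HU embryo. The means were 253 ± 75.0 (SD, n = 9) and 195 ± 29.5 (SD, n = 8), a difference of -0.37 ± 0.18 on the log2 scale (unadjusted p = 0.0455 and adjusted p = 0.835, edgeR). Under ERCC scaling it was -0.19 while the median of all genes was 0.19.

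Chaf1a, the large subunit of CAF-1, had the widest difference. Control embryos ran from 60.4 to 141 CPM with a median of 112. The HU embryos were graded from 79.3 to 246 CPM. HU 2 (79.3 CPM), HU 6 (84.7 CPM), HU 1 (92.3 CPM) and HU 8 (124 CPM) lay within the control range. HU 4 (166 CPM), HU 3 (190 CPM), HU 5 (226 CPM) and HU 7 (246 CPM) all lay above the highest control. The means of 103 ± 28.6 (SD, n = 9) and 151 ± 65.5 (SD, n = 8) differed by 0.56 ± 0.25 on the log2 scale (unadjusted p = 0.0340 and adjusted p = 0.829, edgeR). The gene Ubxn6 overlaps Chaf1a on the opposite strand, and the libraries do not mark strand. Ubxn6 differed by -0.04 ± 0.29 between the groups, and its level had an r of -0.245 with Chaf1a over the 17 embryos, given as a description.

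Chaf1b, the WD-repeat subunit of CAF-1, did not follow Chaf1a in those embryos. It ran from 26.7 to 101 CPM in control embryos (median 61.9) and from 33.6 to 119 CPM in HU embryos (median 62.7), and the one HU embryo above every control was HU 2, where Chaf1a was lowest among HU embryos. The difference was 0.14 ± 0.26 (edgeR adjusted p = 0.953).

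Asf1a (chr10:53596757-53609225, plus strand) ran from 89.7 to 138 CPM in control embryos (median 101) and from 67.0 to 148 CPM in HU embryos (median 113). HU 3, HU 5 and HU 7, each high in Chaf1a, were below every control, and HU 1 was above every control (0.00 ± 0.18, edgeR adjusted p = 0.998). Mcm9, a gene on the opposite strand that overlaps Asf1a, differed by 1.03 ± 0.38 (edgeR adjusted p = 0.829), and its r with Asf1a over the embryos was -0.290.

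Asf1b ran from 109 to 190 CPM in control embryos (median 151) and from 103 to 283 CPM in HU embryos (median 158). HU 1 was above and HU 3 below every control, and the other 6 lay among them (0.13 ± 0.18, edgeR adjusted p = 0.927).

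Ratios within a library do not depend on scaling between libraries, so the gene pairs were also compared as log2 ratios of FPKM + 0.1. None of the 5 ratios passed the test between the groups. The Chaf1b to Chaf1a ratio moved farthest, from -0.01 ± 0.39 (SD, n = 9) to -0.38 ± 0.89 (SD, n = 8), with an exact permutation p of 0.283. Cabin1 to Hira went from 1.75 ± 0.55 to 1.64 ± 0.70, Atrx to Daxx from 0.45 ± 0.39 to 0.34 ± 0.46, and Asf1b to Asf1a from 0.94 ± 0.33 to 1.07 ± 0.45. Adjusted over the 5 ratios the exact permutation p was 0.890 for these 4 and 0.993 for the H3.3 pair.

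From embryo to embryo, the H3.3 genes and the pair of Cabin1 and Hira had the highest correlations of the 5 pairs, both short of the threshold after adjustment. Over 17 embryos, log2(TMM CPM + 1) of H3f3a and H3f3b had a Pearson r of 0.535 (permutation p = 0.0218, adjusted over 5 pairs 0.0544) and a Spearman rho of 0.502 (permutation p = 0.0424, adjusted 0.112). Within groups r was 0.538 in control and 0.576 in HU embryos, and 0.564 without HU 3 and HU 4, the embryos farthest from the H3f3a median. The H3.3 pair passed without HU 3 (r = 0.603, adjusted permutation p = 0.0480). For Cabin1 and Hira r was 0.580 (permutation p = 0.0157, adjusted 0.0544) and rho 0.495 (permutation p = 0.0446, adjusted 0.112). It was 0.483 in control embryos, 0.609 in HU embryos and 0.518 without HU 2 and HU 5. Without HU 8 it passed (r = 0.688, adjusted permutation p = 0.0185).

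The other pairs did not pass with TMM scaling. Under ERCC scaling Asf1b and Asf1a (r = 0.689, adjusted permutation p = 0.0072) and Chaf1b and Chaf1a (r = 0.539, adjusted permutation p = 0.0431) did, as did Cabin1 and Hira (r = 0.799, adjusted permutation p = 0.0006). Atrx and Daxx had r = 0.416 and rho = 0.233 (permutation p = 0.0969 and 0.366, adjusted 0.161 and 0.457), with r of 0.504 in control and 0.0321 in HU embryos, and 0.252 without the 2 embryos farthest from the Atrx median. Chaf1b and Chaf1a had r = 0.271 and rho = 0.282 (permutation p = 0.293 and 0.273, adjusted 0.357 and 0.455). Among control embryos their r was 0.691, among HU embryos -0.0571, and 0.396 without control 1 and HU 2. The difference between those within-group values was not tested. Asf1b and Asf1a had r = 0.238 and rho = 0.0564 (permutation p = 0.357 and 0.833, adjusted 0.357 and 0.833). Their r was -0.165 in control and 0.384 in HU embryos, and -0.275 without HU 1 and HU 3.

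The 4 HU embryos that were high in Chaf1a were also the 4 HU embryos that were high in transcripts of the 2-cell stage. A 2-cell score was taken as the mean log2(TMM CPM + 1) of Zfp352, Sp110, AF067063, Tdpoz3, Tdpoz4, Zscan4c, Zscan4d, Usp17la, Gm2016 and Gm8300, genes known for expression in 2-cell embryos. The score was 4.72, 5.17, 4.47 and 4.55 in HU 3, HU 4, HU 5 and HU 7, and between 1.68 and 3.35 in the other HU embryos. Of the control embryos only control 3 scored above 4, at 6.35, and its Chaf1a level of 112 CPM was the control median. The part of these transcripts in the Chaf1a difference between the groups was not tested.

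Over all 17 embryos Chaf1a and the score had r = 0.529 (permutation p = 0.0290, adjusted over 10 genes 0.290) and rho = 0.341 (permutation p = 0.181, adjusted 0.440). Without control 3 and HU 4, the embryos with scores farthest from the median, r was 0.672. Within control embryos it was 0.0968 and within HU embryos 0.780. Of the scores, 12 were under 4 and 5 over 4. This division was made after seeing the scores and is not the widest gap, which was 1.18 (25.2% of the range) and set control 3 apart from the other 16. Among the 12 lower embryos r was -0.284. Among the 5 upper embryos, too few for an r, Chaf1a as log2(TMM CPM + 1) was 7.82 in HU 5, 7.95 in HU 7, 7.58 in HU 3, 7.39 in HU 4 and 6.83 in control 3, in order of rising score, so the 3 embryos with the higher scores had the lower Chaf1a levels. The pooled relation thus rests on HU 3, HU 4, HU 5 and HU 7 set against the rest and holds in neither set. Without control 3 the pooled value passed (r = 0.678, adjusted permutation p = 0.0441), as it did with a score of Zfp352 and Sp110 alone (r = 0.750, adjusted permutation p = 0.0063).

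For the other 9 genes the adjusted permutation p of r was 0.378 or more, and of rho 0.440 or more. H3f3a had r = 0.251 and Asf1a r = -0.332. The H3f3a value changed sign without control 3 and HU 4 (-0.361) and passed without HU 3 (r = 0.708, adjusted permutation p = 0.0482), so it rests on single embryos. Asf1a went to -0.721 without control 3 and HU 4, with r of 0.278 in control and -0.645 in HU embryos. The remaining 7 genes, Chaf1b, Asf1b, H3f3b, Hira, Cabin1, Daxx and Atrx, lay between -0.325 (Asf1b) and 0.382 (H3f3b). Several of these also moved without control 3 and HU 4: Hira went from 0.305 to 0.642, Cabin1 from 0.287 to 0.601, Chaf1b from 0.0590 to 0.313, Daxx from 0.331 to 0.138, Atrx from -0.0494 to -0.222 and H3f3b from 0.382 to -0.0974, while Asf1b was -0.309. Without control 3 alone H3f3b was at 0.142.

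**Figure D4:**
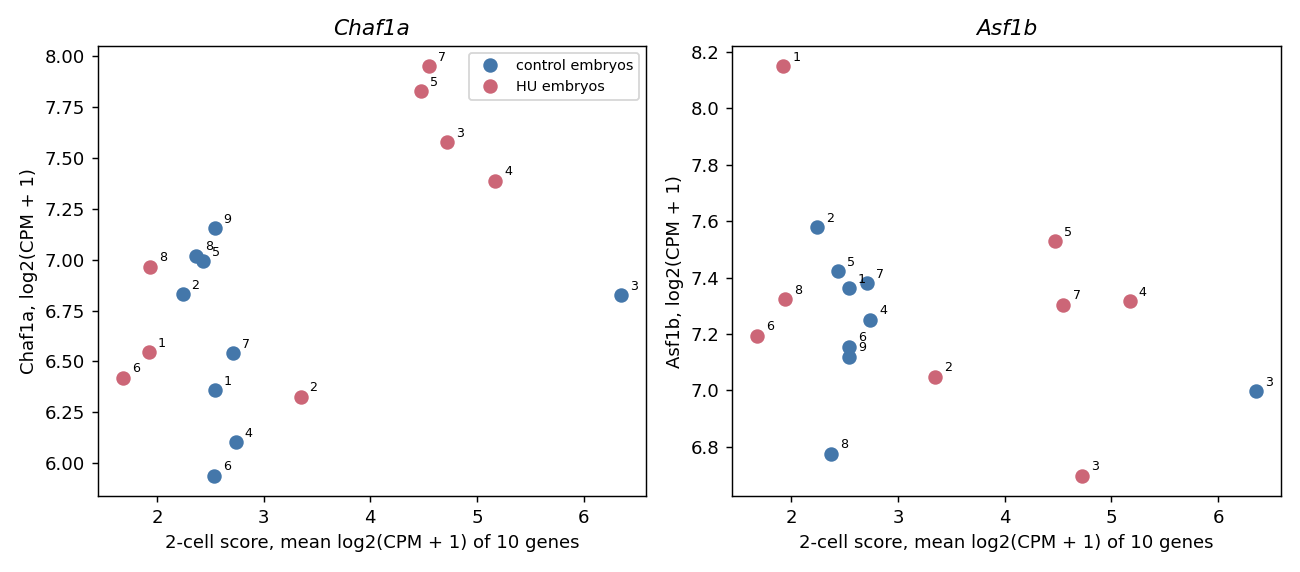
Chaf1a (left) and Asf1b (right), as log2(TMM CPM + 1), against the 2-cell score in 17 embryos, each point numbered by its replicate in the labels. HU 3, 4, 5 and 7 lie apart at high score and high Chaf1a, control 3 has the highest score with a middling Chaf1a level, and Asf1b shows no such set.

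A wider list of 42 other H3 chaperones, partners and histone-binding proteins also held no call for HU. All 42 were tested, 0 were called by edgeR, 28 lay above 0 and 14 below, and the median was 0.10, beside 0.04 over all genes. Only Ubn1, the ubinuclein subunit of the HIRA complex, had an unadjusted p under 0.05: 106 ± 26.1 CPM in control (SD, n = 9) and 153 ± 42.6 CPM in HU embryos (SD, n = 8), a log2 difference of 0.52 ± 0.20 (adjusted p = 0.829, edgeR). The next smallest p values were those of Npm1, the nucleolar histone chaperone nucleophosmin (0.48 ± 0.26), and Supt6, which handles H3 with H4 during transcription (-0.47 ± 0.26). The most abundant of the list in control embryos were Npm1 at 299.8 FPKM, the centromeric H3 variant Cenpa at 194 FPKM and the oocyte chaperone Npm2 at 173 FPKM, which differed by 0.48, 0.19 and -0.21 on the log2 scale.

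The genes whose level followed each member most closely over the 17 embryos were found after subtracting group means, among 3647 genes at 50 CPM or more. Chaf1a was closest to Ddhd2 (r = 0.905), H3f3b to Dut (r = 0.890) and H3f3a to Dnttip2 (r = 0.850). Asf1a was closest to Dhrs3 (r = 0.821), Hira to Scap (r = 0.798), Daxx to Rhno1 (r = 0.791) and Atrx to Eif1b (r = 0.781). For Chaf1b it was Morc2a (r = 0.772), for Asf1b Lrrc28 (r = 0.755) and for Cabin1 Hyou1 (r = 0.708). These are the highest of many values over embryos that share a scaling, and they are descriptions.

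The cumulus cells had Chaf1a, Chaf1b and Asf1b at very low levels or none. H3f3a and Atrx were counted in 11 of the 12 cells and H3f3b and Asf1a in all 12. Counts were summed over the 12 cells and set against the mean CPM of control embryos, as log2 ratios after adding 1 CPM. Of the 10 genes, 5 were at least 4-fold lower in cumulus cells and 0 at least 4-fold higher, with a median log2 ratio of -1.999. Among the 10051 genes at 10 CPM or more in either group, 37.5% were that much lower and 9.31% higher, with a median of -1.25. With Rn45s and mitochondrially encoded genes left out of the library sizes, 3 of the 10, namely Chaf1a, Chaf1b and Asf1b, were still at least 4-fold lower. The share of all genes under that scaling is not given here, so this count cannot be set against it.

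Asf1b, the ASF1 form linked to proliferation, had 0 counts in 12 cells, against 109 to 190 TMM CPM in every control embryo. A floor of 3 counts, taken over all 12 cells together (0.125 CPM), makes its summed level at least 1214-fold lower than the control mean of 151 ± 29.8 CPM (SD, n = 9). A count of 0 in 12 cells allows a share of up to 25.0% of cells with a count. This bound takes the 12 cells as independent draws and holds within this 1 sample only. Of the 1693 genes at 100 CPM or more in control embryos, 143 (8.45%) also had no count in any cell, as did 8.11% of those at 10 CPM or more in either group.

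Chaf1a was counted in 2 of 12 cells, with 3 counts in cell 3 and 84 in cell 9. Its summed level was 3.62 CPM (95% exact Poisson interval 2.90 to 4.46), 28.4-fold lower than the 103 ± 29.5 CPM of control embryos (SD, n = 9). The log2 ratio of -4.49 became -6.51 without cell 9. Chaf1b was counted in 3 cells, with 70 counts in cell 1, 25 in cell 2 and 43 in cell 7, and no cell had counts of both subunits. Its sum of 5.74 CPM (4.82 to 6.78) was 10.4-fold lower than the 59.8 ± 18.5 CPM of control embryos, with a log2 ratio of -3.17, or -3.87 without cell 1. After thinning every cell to 152332 counts besides Rn45s, Chaf1a was expected in 1.33 and Chaf1b in 2.999 of the 12 cells, and Asf1a in 11.996.

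Markers of proliferating cells were also lower in the cumulus cells than in control embryos. Mki67, Top2a, Cdk1, Ccna2, Ccnb1, Aurkb, Birc5 and Plk1 were all at least 4-fold lower in the cumulus cells (8 of 8, median -7.03). Top2a, Ccna2, Aurkb, Birc5 and Plk1 had no count. Cdk1 had 103 counts in 4 cells, Mki67 18 in 1 cell and Ccnb1 4 in 1 cell. Counts this few in single cells do not show which cells were proliferating. Among the 10051 genes at 10 CPM or more in either group, 37.5% were that much lower and 8.11% had no count. The summed level of the markers ran from 0 to 119.8 CPM over the cells and from 1886 to 2995 CPM over control embryos. Cells 3 and 9, with Chaf1a counts, and cells 2 and 7, with Chaf1b counts, had 0 marker counts. Cells 6, 10, 11 and 12 had 28, 38, 22 and 5 marker counts and no count of Chaf1a, Chaf1b or Asf1b. Only cell 1 had both, with 32 marker counts and 70 of Chaf1b. The part of proliferation in the low Asf1b, Chaf1a and Chaf1b levels was not tested.

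**Figure D5:**
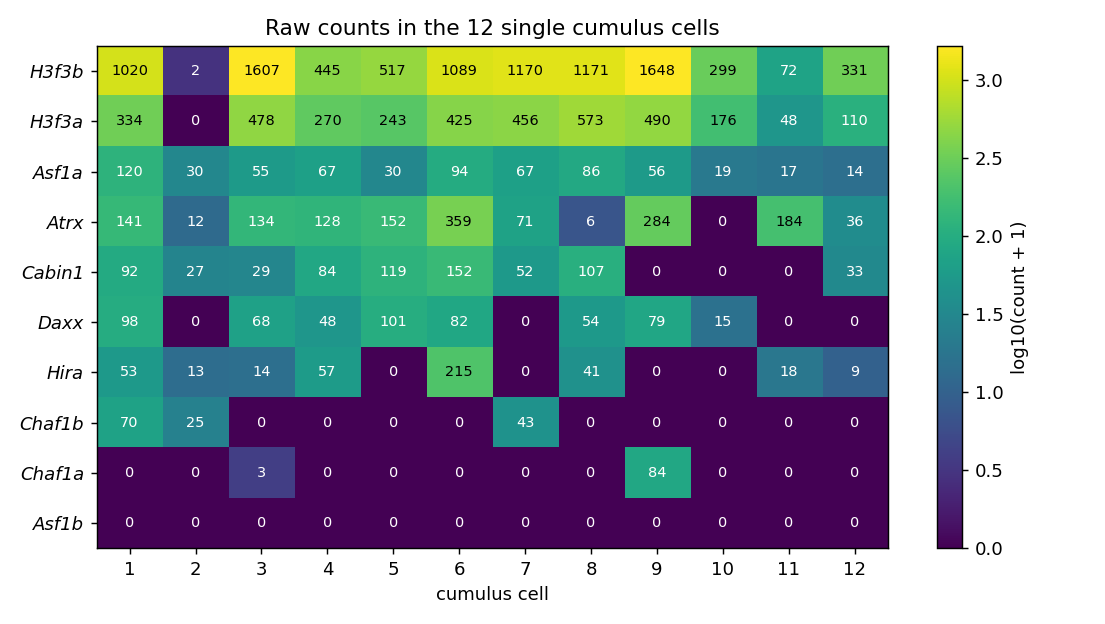
Raw counts of each gene in the 12 single cumulus cells (numbers in the squares; colour, log10 of count + 1). Asf1b has 0 in every cell, Chaf1a a count in 2 cells and Chaf1b in 3, while Asf1a and H3f3b are counted in all 12.

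Asf1a was counted in 12 of 12 cells, from 14 to 120 counts. Its sum of 27.2 CPM was 3.92-fold below the control embryos, a log2 ratio of -1.93. H3f3a was counted in 11 cells, all but cell 2, and its sum of 149.8 CPM (145 to 155) was the one level above that of control embryos (121 ± 25.4 CPM, log2 ratio 0.30). H3f3b, counted in all 12 cells but with only 2 counts in cell 2, was 389.5 CPM against 1581 ± 430 CPM (log2 ratio -2.02). The H3.3 genes thus lay on opposite sides of the control level, although H3f3b remained the highest by mean FPKM in the cumulus cells too (206, against 161 for H3f3a).

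Cabin1 was counted in 9 cells and Hira in 8, at 28.9 and 17.5 CPM, with log2 ratios of -2.63 and -0.98. The Hira value fell to -1.69 without cell 6, which held 215 of its 420 counts. Atrx was counted in 11 cells (62.6 CPM, -1.98) and Daxx in 8 (22.7 CPM, -1.14). Atrx and Asf1a lay just inside the 4-fold line and H3f3b just past it. Leaving out cells 2 and 10 gave -1.96 for H3f3b, -0.92 for Hira, -1.88 for Atrx, -4.41 for Chaf1a and -3.33 for Chaf1b. With Rn45s and mitochondrial genes left out of the library sizes every ratio but that of Asf1b rose, to 1.25 for H3f3a, -1.08 for H3f3b, -1.05 for Atrx, -0.06 for Hira, -0.22 for Daxx, -1.70 for Cabin1, -1.01 for Asf1a, -2.37 for Chaf1b and -3.75 for Chaf1a.

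By mean FPKM the order in the cumulus cells was H3f3b, H3f3a, Asf1a, Daxx, Atrx, Cabin1, Hira, Chaf1b, Chaf1a and Asf1b. Asf1b, 3rd of 10 in control embryos, was last, and Daxx, 9th in control embryos, was 4th. In the wider list 18 of 42 genes were at least 4-fold lower and 0 higher in cumulus cells, with a median of -1.48, near the 37.5% and the median of -1.25 over all 10051 genes. Npm2 was among those with no count in any cell, and Cenpa had 64 counts in 4 cells against 306 ± 90.0 CPM in control embryos.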

How the data were processed

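The members and gene lists were chosen with earlier results of these data known. RNA of 17 single embryos and 12 single cumulus cells was prepared with Smart-seq2, per the labels' protocols. The authors deposited raw counts per gene (24540 rows, of which 92 are ERCC spike-ins) and FPKM values. For all 10 members the deposited FPKM was recovered from the count, a fixed length per gene and the library total without ERCC rows. The submitters' processing notes name STAR 2.7.3a, R 4.0.2, FastQC and the mm10 build. Which program counted reads, with which annotation and strand, is not given in the sources used here.

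Samples were grouped by the treatment and source given in the labels. Counts without ERCC rows were tested with edgeR 4.0.16 in R 4.3.3 (TMM, filterByExpr, quasi-likelihood F test, 17 embryos, Benjamini-Hochberg over 11476 genes, threshold 0.05). On simulated data this fit recovered 7 of 50 2-fold and 38 of 50 4-fold changes, with 6 false calls. SEs come from the F statistic. Alternatives used DESeq2 1.42.0, limma 3.58.1, other scalings, filters and left-out libraries. Ratios of FPKM + 0.1 and neighbouring levels were compared by exact permutation, correlations with 100000 resamples (Python 3.11.15, scipy 1.17.1). The labels name no animal for the cumulus cells, so they count as 1 sample without a test. The labels do not say whether embryos share a day or female, so the embryos may not be independent. A p-value here sets a difference only against the spread among these embryos, which may be technical.

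Named genes were the 10 members, of the wider list any past the threshold or else the 3 with the smallest p and the 3 with the highest FPKM in control embryos, the 1 gene most like each member, and markers. Positions are from GENCODE M21 on GRCm38 and promoters from RefSeq, in which all 10 members matched by symbol. Of the other marker lists, immune genes summed to at most 35.5 CPM in control embryos, 24.5 CPM in HU embryos and 158 CPM in cumulus cells, endothelial genes to 60.3, 67.7 and 20.1 CPM, theca and stroma genes to 13.3, 11.4 and 3.56 CPM, and erythroid genes had no count.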

Additional observations from a re-analysis of the deposited data

How the results depend on the processing

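No member passed the HU test under any of the 10 other tools, scalings and filters or with any embryo left out. Over all genes DESeq2 called 3 where edgeR called 0, and leaving out 1 embryo gave 0 to 1, the 1 call being without HU 8. Asf1a, at 0.00, turned to -0.0029 with DESeq2, -0.02 with limma-voom (-0.0246), -0.0032 with DESeq2 size factors, -0.0201 by library size, -0.0080 without Rn45s, -0.0179 without the filter, -0.0128 with all 29 libraries and -0.0309 with the replicate block. With 1 embryo left out Asf1a ran from -0.0951 to 0.0681, Asf1b from -0.0431 to 0.208, Chaf1b from -0.0428 to 0.248 and H3f3a from -0.325 to 0.0840.

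The labels number the embryos, and a fit with the replicate number as a block (control 9 left out) called 0 genes, and at p under 0.05 before adjustment 274 were higher and 262 lower, against 356 and 246 without the block. Deviations of same-numbered embryos had correlations of -0.103 to 0.167, over 0.1 in 1 of 8 pairs, and 0 embryos correlated best with their own number, so the numbers were not taken as pairs.

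The H3f3a to H3f3b difference, -0.003, was 0.000609 with a pseudocount of 1 FPKM. With 1 embryo left out it ran from -0.0932 to 0.183, and that of Cabin1 to Hira from -0.265 to 0.0149. Under ERCC scaling, which like TMM applies 1 factor to each embryo, some partner correlations passed the threshold. They were those of Cabin1 and Hira (r = 0.799), Chaf1b and Chaf1a (0.539) and Asf1b and Asf1a (0.689). The r of H3f3a and H3f3b went down from 0.535 to 0.477 and that of Atrx and Daxx up from 0.416 to 0.486, and neither passed. With 1 embryo left out r ran from -0.101 to 0.361 for Asf1b and Asf1a, 0.520 to 0.688 for Cabin1 and Hira, and 0.443 to 0.603 for H3f3a and H3f3b. Against the 2-cell score it ran from -0.291 to 0.0679 for Atrx, 0.477 to 0.678 for Chaf1a, -0.0109 to 0.238 for Chaf1b and 0.0529 to 0.708 for H3f3a. Zfp352 and Sp110 alone gave 0.750 for Chaf1a. The 12 embryos scoring under 4, an alternative chosen after seeing the data, as were leaving out cumulus cells 2 and 10 and the fit without control 9, gave -0.0456 for H3f3a, -0.203 for H3f3b, 0.217 for Atrx and -0.284 for Chaf1a. The causes were not tested.

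Neighbouring levels past the threshold numbered 5, and 3 to 4 with 1 control embryo left out, where fewer samples raise the smallest possible p. Cabin1 over Atrx then ran from -0.0175 to 0.137 and Chaf1b over Chaf1a from -0.0630 to 0.0865. Members at least 4-fold lower in cumulus cells numbered 3, not 5, without Rn45s and mitochondrial genes in the library sizes, and 4 to 6 with 1 cell left out. No share over all genes is given for these settings, so these counts describe the members only. With 0 counts in 12 cells, depth limits what can be said of Asf1b there to its floor.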
